A study of Homo sapiens with 6 samples.

Results

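Genes of the enzymes that remove superoxide and hydrogen peroxide were followed in RSL3-treated glioblastoma cells. They are the 6 peroxiredoxins PRDX1 to PRDX6, the 3 superoxide dismutases SOD1 to SOD3 and catalase (CAT), chosen by gene symbol and not by any measured value. All 10 were found among the 65988 Ensembl gene identifiers of the deposited counts, and all 10 were among the 16105 genes that passed the filter on low counts. U87MG, an established human glioblastoma cell line labelled wild type (WT), received vehicle in 3 control libraries. The same line received 2 µM RSL3, a small molecule that inhibits the lipid peroxide reductase GPX4, in 3 further libraries. The treatment lasted 24 h by a figure legend of the study and is not timed in the labels. Libraries were made from poly(A) RNA and read pairs were counted per gene.

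Superoxide dismutases convert superoxide, a by-product of respiration and of oxidase enzymes, into oxygen and hydrogen peroxide. Catalase in peroxisomes and peroxiredoxins in several compartments then break hydrogen peroxide down, peroxiredoxins by oxidizing a cysteine that thioredoxin reduces again. In ferroptosis, the iron-dependent death that RSL3 sets off, hydrogen peroxide can feed the reactions that make lipid radicals.

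Total counts lay between 27813462 and 43306335 per library. The first principal component held 47.3% of the variance and separated the groups, and on it RSL3 replicate 3 lay nearest to the control libraries. The line carried the mesenchymal glioma markers VIM, CD44 and FN1 at high counts, whereas the astrocyte marker GFAP had a mean of 104 normalized counts in control cells and 138 in RSL3-treated cells. Of 8 such glial and mesenchymal markers, 5 were lower and 1 was higher after RSL3 at an adjusted p under 0.05 in edgeR. Of all genes tested, 12.7% were lower and 12.9% higher. NES and GFAP had higher means after RSL3 and were not called (log2 fold changes 0.25 and 0.40). The summed level of the 8 markers was 209141 to 215436 in control libraries and 180126 to 187827 after RSL3. Of 7 myeloid and lymphoid markers, 6 had group means under 10, AIF1 and CD3E had no count, and the summed level was 94.3 to 111 in control libraries and 74.8 to 105 after RSL3. The summed level of the lists was 70.7 to 104 against 33.2 to 55.9 for 5 endothelial markers, 1286 to 1418 against 1394 to 1435 for 6 neuronal markers, 79.9 to 106 against 142 to 160 for 4 oligodendrocyte markers and 22.1 to 25.9 against 8.05 to 26.0 for 4 epithelial markers, control against RSL3. The share of all counts taken by the 13 mitochondrially encoded mRNAs, a sign of RNA quality, was 0.674% to 0.911% in control libraries and 0.572% to 0.642% after RSL3. The part of these differences in the results that follow was not tested.

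RSL3-treated cells had less mRNA of catalase and of the mitochondrial dismutase SOD2, while shifts in the other 8 genes were smaller. PRDX6 was slightly lower and SOD1 slightly higher. At an adjusted p under 0.05 in edgeR's quasi-likelihood F test, adjusted over all genes tested, 1 of the 10 genes was higher and 3 were lower. Across all genes tested, 12.9% were higher and 12.7% lower by the same rule. The 3 RSL3 libraries lay wholly above the 3 control libraries in 2 of the 10 genes and wholly below in 5, against 38.6% of all genes with groups that did not overlap in either direction. The median log2 fold change was -0.07 for the 10 genes and -0.00 for all genes tested. The 6 genes that were not called had 95% intervals between -0.22 and 0.17 on the log2 scale. The raw counts behind these values were between 498 and 76503 per library, and the SD within a group was between 0.546% and 11.4% of the mean. In bulk RNA, fewer cells that express a gene and less RNA per cell cannot be told apart.

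**Figure D1:**
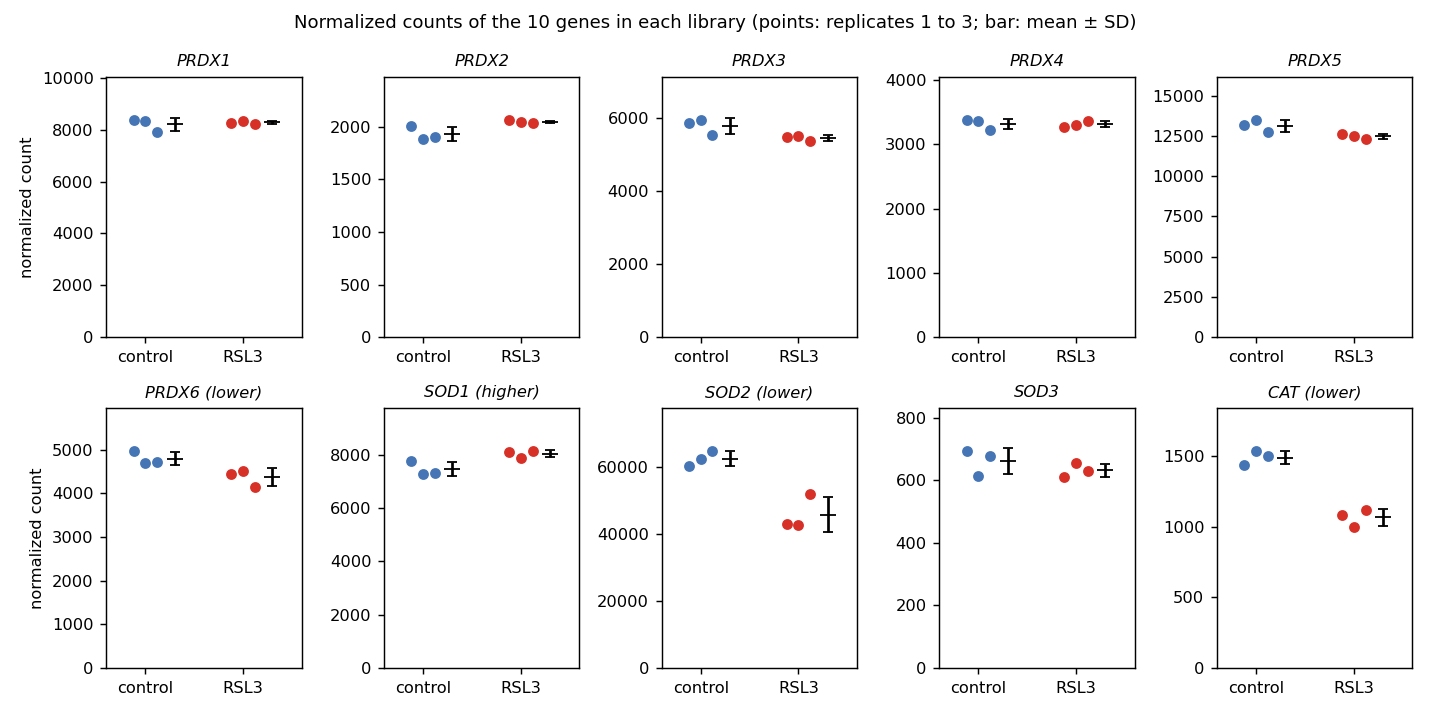
Normalized counts (vertical axes, starting at 0) of the 10 genes in control (blue) and RSL3-treated (red) libraries; each point is a library and each black bar the mean ± SD of 3 libraries. CAT and SOD2 show a wide gap between the groups, PRDX6 and SOD1 a narrow one, and the groups overlap in PRDX1, PRDX4 and SOD3.

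SOD2 (ENSG00000112096) encodes the manganese superoxide dismutase of the mitochondrial matrix and lies on the minus strand of chromosome 6, from 159669069 to 159762529 in GRCh38. Its normalized counts (TMM-scaled to the average library) were 60108, 62396 and 64615 in the control libraries and 42925, 42548 and 51777 in the RSL3 libraries. Every RSL3 library was below every control library, and RSL3 replicate 3 stood apart, nearer to the control cells than the other two. SOD2 went from 62373 ± 2254 to 45750 ± 5223 (SD, n = 3), a log2 fold change of -0.45 (standard error 0.05, 95% interval -0.55 to -0.34, adjusted p = 7.04e-07 in edgeR). The level fell by 26.6%, and without RSL3 replicate 3 the log2 fold change was -0.54. Among the tested genes, 7.21% had a lower fold change than SOD2, which placed it 483rd of 2041 genes called lower.

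The SOD2 gene model shares 7.78% of its exon bases with other genes. SOD2-OT1, a noncoding RNA on the same strand, accounts for 939 shared bases. It is absent from the deposited counts, so any reads from it could not be told apart from those of SOD2. The authors' counting ignored strand, so reads from bases shared with genes on the other strand cannot be assigned by strand. On the other strand WTAP, a subunit of the mRNA N6-adenosine methylation complex, covers 437 bases and ACAT2, a thiolase of acetyl-CoA metabolism, covers 133. WTAP was also lower after RSL3, from 6727 ± 145 to 4470 ± 259 (SD, n = 3), a log2 fold change of -0.59 (adjusted p = 3.23e-10 in edgeR). ACAT2 was lower as well, by -0.24 (adjusted p = 0.0239 in edgeR). Its start lies 484 bases from the outermost start of the SOD2 gene model, at 159762529. That is not the start of the canonical SOD2 transcript, which lies next to base 159693242. The part of the overlapping genes in the SOD2 value was not tested.

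SOD1 (ENSG00000142168, chromosome 21, 31659666 to 31668931, plus strand) encodes the copper and zinc dismutase of the cytosol and the mitochondrial intermembrane space. It had 7767, 7296 and 7330 normalized counts in control libraries and 8109, 7885 and 8135 in RSL3 libraries. All RSL3 libraries were higher than all control libraries, and the gap was narrowest between control replicate 1 and RSL3 replicate 2. The means were 7464 ± 263 and 8043 ± 138 (SD, n = 3), an increase of 7.70% with a log2 fold change of 0.11 (standard error 0.03, 95% interval 0.04 to 0.17, adjusted p = 0.0177 in edgeR). This call depended on single libraries. The adjusted p was 0.0710 without control replicate 2, 0.0559 without control replicate 3 and 0.0705 without RSL3 replicate 1, and it was 0.0621 in DESeq2 with 2 surrogate variables. A long noncoding RNA on the other strand, SOD1-DT, starts 166 bases away and had too few counts to be tested.

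SOD3 (ENSG00000109610, chromosome 4, 24789912 to 24800842, plus strand) encodes the secreted dismutase that binds heparan sulfate outside the cell. Its normalized counts were 692, 612 and 676 in control libraries and 612, 654 and 628 in RSL3 libraries. The groups overlapped, with a log2 fold change of -0.07 (95% interval -0.22 to 0.08, adjusted p = 0.535 in edgeR), the widest interval of the 10 genes. SOD3 also had the fewest reads, at 660 ± 42.2 against 631 ± 21.5 normalized counts (SD, n = 3).

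The mitochondrial and the cytosolic dismutase thus moved in opposite directions, and their ratio within a library does not depend on library size. The ratio of SOD2 to SOD1 counts was 7.74, 8.55 and 8.82 in control libraries and 5.29, 5.40 and 6.36 in RSL3 libraries. The groups did not overlap, and the mean log2 ratio differed by -0.56, or between -0.64 and -0.51 with any 1 library left out. An exact two-sided permutation test gave p = 0.1, the smallest value that 3 libraries against 3 allow.

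CAT (ENSG00000121691) encodes catalase, the heme enzyme of peroxisomes that splits hydrogen peroxide into water and oxygen, and sits on chromosome 11 (34438934 to 34472060, plus strand). It had 1439, 1535 and 1499 normalized counts in control libraries against 1080, 1001 and 1122 in RSL3 libraries. The groups were far apart compared with their spread, and no library stood out within either. The mean fell from 1491 ± 48.7 to 1068 ± 61.5 (SD, n = 3), so that CAT fell by 28.3%, with a log2 fold change of -0.48 (standard error 0.05, 95% interval -0.59 to -0.37, adjusted p = 5.85e-07 in edgeR). Of all genes tested, 6.44% had a lower fold change, and CAT was 432nd of the 2041 called lower. No other annotated gene covers its exon bases. Catalase and SOD2 were called lower in 15 of 15 alternative fits, with log2 fold changes of -0.51 to -0.43 for CAT and -0.54 to -0.40 for SOD2.

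Because CAT and SOD2 had the largest decreases, the bases before their starts are shown, from the RefSeq table of promoters in GRCh38.p14. CAT is shown for chr11:34438684-34438933 on the plus strand. For SOD2, the start of the canonical transcript was used, chr6:159693279-159693491 on the minus strand, leaving out 37 bases nearest to the start that an exon of another SOD2 transcript covers. Capitals mark the GC box (GGGCGG), the binding letters of SP factors, and the CCAAT box (CCAAT), the binding letters of the NF-Y factor, on either strand:
CAT: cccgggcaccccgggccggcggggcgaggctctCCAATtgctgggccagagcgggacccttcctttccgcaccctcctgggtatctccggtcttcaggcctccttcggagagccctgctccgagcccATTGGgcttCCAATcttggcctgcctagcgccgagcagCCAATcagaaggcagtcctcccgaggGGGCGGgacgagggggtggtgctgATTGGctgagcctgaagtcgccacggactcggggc
SOD2: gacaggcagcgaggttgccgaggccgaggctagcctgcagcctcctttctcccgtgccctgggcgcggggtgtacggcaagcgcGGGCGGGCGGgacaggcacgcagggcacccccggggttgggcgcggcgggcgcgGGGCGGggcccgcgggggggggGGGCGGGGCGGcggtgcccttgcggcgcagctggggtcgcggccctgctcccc
In the 250 bases before the start, CAT held 5 CCAAT boxes, at 217, 123, 114, 85 and 35 bases before the start, and 1 GC box. The SOD2 window held 6 GC boxes, of which 5 lie in the part shown and some overlap each other, and no CCAAT box. Across all 35116 promoter windows of this length, 42.6% held at least 1 GC box and 32.0% at least 1 CCAAT box. The number of boxes in a window was not compared with other promoters. G and C made up 80.8% of the SOD2 window and 68.8% of the CAT window. Entries for 7 of the 10 genes, all but PRDX1, PRDX6 and SOD1, gave 11 windows, and none of these held the NRF2 binding core TGACNNNGC, the FOXO motif GTAAACA or the NF-κB consensus, which occur in 10.9%, 2.98% and 5.21% of all windows. These matches describe letters in this window only.

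The log2 fold changes of the peroxiredoxins were small, between -0.13 (PRDX6) and 0.08 (PRDX2). The RSL3 libraries lay wholly above the control libraries in PRDX2 and wholly below in PRDX3, PRDX5 and PRDX6. Of all genes tested, 38.6% had groups that did not overlap. Of the 6, only PRDX6 was called, beside 12.9% higher and 12.7% lower of all genes tested. The median log2 fold change of the 6 was -0.04. Summed over the 6 genes, they made up 1090 ± 29.3 CPM (counts relative to the TMM-adjusted library size) in control cells and 1055 ± 12.5 after RSL3 (SD, n = 3), a difference of -3.24%.

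PRDX6 (ENSG00000117592, chromosome 1, 173477330 to 173488815, plus strand) encodes the peroxiredoxin with a single catalytic cysteine, which also reduces phospholipid hydroperoxides and has phospholipase activity. Its normalized counts were 4962, 4693 and 4713 in control libraries and 4453, 4518 and 4146 in RSL3 libraries. RSL3 replicate 3 was the lowest of all, and even the highest RSL3 library was below the lowest control library. The mean fell from 4790 ± 150 to 4372 ± 199 (SD, n = 3), a log2 fold change of -0.13 (standard error 0.04, 95% interval -0.21 to -0.06, adjusted p = 0.0111 in edgeR). The adjusted p was 0.0699 without control replicate 1, 0.0839 without RSL3 replicate 3 and 0.0842 in DESeq2 with 2 surrogate variables.

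PRDX3 (ENSG00000165672, chromosome 10, 119167720 to 119178812, minus strand), the peroxiredoxin confined to mitochondria, had 5872, 5937 and 5526 normalized counts in control libraries and 5495, 5502 and 5365 in RSL3 libraries. PRDX5 (ENSG00000126432, chromosome 11, 64318121 to 64321811, plus strand), found in mitochondria, peroxisomes and cytosol, had 13208, 13465 and 12730 against 12625, 12507 and 12303. In both genes the RSL3 libraries were all below the control libraries, and control replicate 3 was the lowest control library. Neither change passed the threshold in edgeR. PRDX3 had a log2 fold change of -0.08 (95% interval -0.15 to -0.01, adjusted p = 0.0791) and PRDX5 one of -0.07 (95% interval -0.14 to -0.01, adjusted p = 0.0758). Both passed without control replicate 3, with an adjusted p of 0.0236 for PRDX3 and 0.0324 for PRDX5 in edgeR, and with library sizes taken as total counts, at 0.0464 and 0.0381. TRMT112, which starts 562 bases from PRDX5 on the other strand, had a log2 fold change of -0.05 and was not called (adjusted p = 0.352 in edgeR).

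PRDX1 (ENSG00000117450, chromosome 1, 45510914 to 45542732, minus strand) encodes an abundant cytosolic peroxiredoxin. Its normalized counts were 8364, 8347 and 7915 in control libraries and 8277, 8337 and 8246 in RSL3 libraries. All RSL3 values lay within the range of the control values, with a log2 fold change of 0.01 (95% interval -0.05 to 0.08, adjusted p = 0.803 in edgeR). MMACHC, a gene of vitamin B12 metabolism on the other strand, covers 29.8% of the exon bases of PRDX1 and was not called (-0.27, adjusted p = 0.0731 in edgeR).

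PRDX2 (ENSG00000167815, chromosome 19, 12796820 to 12801800, minus strand), a cytosolic peroxiredoxin abundant in red cells, had 2004, 1883 and 1900 normalized counts in control libraries and 2061, 2045 and 2040 in RSL3 libraries. The RSL3 libraries were all above the control libraries and very close to each other. The log2 fold change of 0.08 did not pass the threshold (95% interval -0.00 to 0.17, adjusted p = 0.140 in edgeR). A noncoding RNA on the other strand (ENSG00000267062) covers 12.1% of its exon bases and had no count. THSD8, a protein-coding gene on the other strand, starts 231 bases from PRDX2 and is absent from the deposited counts. PRDX4 (ENSG00000123131, chromosome X, 23664262 to 23686397, plus strand), the peroxiredoxin of the endoplasmic reticulum, had 3371, 3356 and 3220 against 3272, 3302 and 3360. The PRDX4 values overlapped, with a log2 fold change of -0.00 (95% interval -0.07 to 0.07, adjusted p = 0.986 in edgeR). The 15 annotated pseudogenes of these 10 genes had a highest group mean of 3.87 normalized counts, and 9 had no count at all.

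Levels can be compared between genes only per length of transcript, here as normalized counts per kilobase of the canonical transcript of GENCODE v44. In control cells PRDX5 was the highest at 15273 ± 434, followed by PRDX1 at 8687 ± 269 and SOD1 at 8340 ± 293, whose ranges overlapped. Then came SOD2 at 4403 ± 159, PRDX3 at 3721 ± 142, PRDX4 at 3468 ± 87.1, PRDX6 at 2834 ± 88.7 and PRDX2 at 2086 ± 71.0, with CAT at 651 ± 21.2 and SOD3 at 466 ± 29.8 lowest (SD, n = 3), each apart from its neighbors. After RSL3 the level of SOD2 was 3229 ± 369, and its libraries spread from 3003 to 3655, below and above those of PRDX3 (3455 to 3543) and PRDX4 (3423 to 3515). CAT, at 466 ± 26.9, then overlapped SOD3 at 446 ± 15.2, and SOD1 and PRDX1 overlapped again. Part of this order depends on the gene model. Per kilobase of all annotated exons together, PRDX6 (2073) was above PRDX4 (1787) and PRDX3 (1710) in control cells, and SOD2 after RSL3 (2521) was above PRDX3 (1614) and PRDX4 (1785). The canonical transcript of SOD2 has 14167 bases and all its exons together 18144, whereas the other canonical transcripts have 860 (PRDX5) to 2291 (CAT) bases. The place of SOD2 in both orders rests on these long models. If shorter SOD2 transcripts supplied the reads, its level per kilobase would be higher. Which SOD2 transcripts were present was not tested.

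By counts alone, with no regard to length, SOD2 supplied the largest share of the reads. It made up 55.8% to 58.7% of the counts of the 10 genes in control libraries and 48.2% to 53.3% after RSL3. The 10 genes together had 3162, 3213 and 3230 CPM in control libraries and 2608, 2590 and 2849 in RSL3 libraries. The sum was thus lower in every RSL3 library, with a difference of -16.2% between the means, whereas without SOD2 the mean sum was 1372 ± 33.1 against 1340 ± 9.51 (SD, n = 3), a difference of -2.30%.

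**Figure D2:**
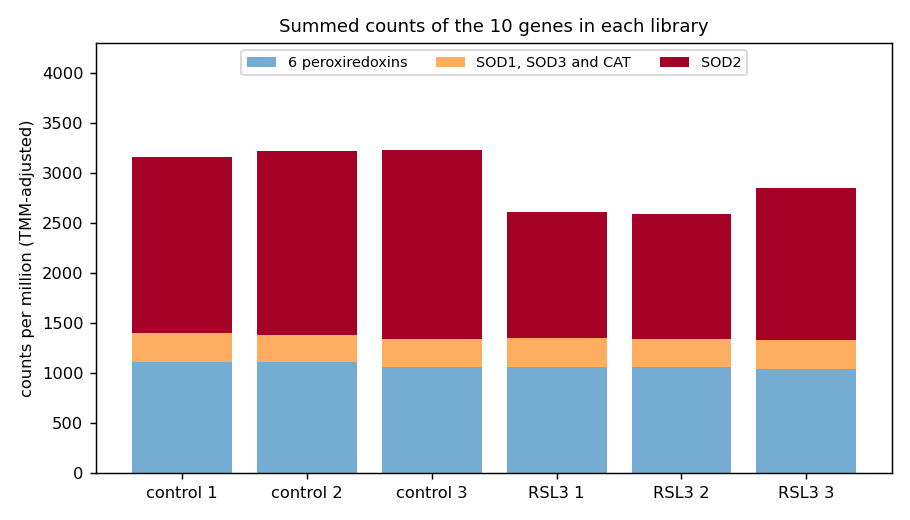
Summed CPM (vertical axis, counts per unit of TMM-adjusted library size) of the 10 genes in each library, stacked as the 6 peroxiredoxins, then SOD1, SOD3 and CAT, then SOD2. The 3 RSL3 libraries reach 2590 to 2849 against 3162 to 3230 in the control libraries, and the SOD2 part differs most.

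The partners that recycle peroxiredoxins moved both ways. Of 11 tested genes of a list of 12, 4 were higher and 3 lower, beside 12.9% and 12.7% of all genes tested. Their median log2 fold change was -0.08. The list had 4 called genes in place of 7 without control replicate 1, and also without RSL3 replicate 2. SRXN1 encodes sulfiredoxin, which repairs overoxidized peroxiredoxins, and rose from 985 ± 49.8 to 1888 ± 128 normalized counts (SD, n = 3; 0.93 on the log2 scale, adjusted p = 1.04e-10 in edgeR). Another annotated gene covers 90.7% of its exon bases. TXNRD1, the cytosolic thioredoxin reductase, rose from 52320 ± 1905 to 76497 ± 3820 (0.55, adjusted p = 1.41e-10), and TXN, the cytosolic thioredoxin, from 16606 ± 671 to 20586 ± 80.7 (0.31, adjusted p = 1.32e-07). The mitochondrial thioredoxin TXN2 fell from 2542 ± 103 to 2283 ± 87.0 (-0.16, adjusted p = 0.00782). TXNRD2, the mitochondrial reductase, named here after its values were seen, had 749 ± 15.0 and 742 ± 56.2 (-0.01, adjusted p = 0.914). SESN2 and SESN3, sestrins of the stress response, fell by 0.08 and 0.29 on the log2 scale, with adjusted p of 0.0402 and 0.0469. GSTP1 of the same list, also named after its values were seen, rose (0.22, adjusted p = 7.39e-05). Among the enzymes described above as cytosolic, TXN, TXNRD1 and SRXN1 rose, as did SOD1, whose call depended on single libraries. PRDX1 and PRDX2 were not called. In mitochondria TXN2 and SOD2 fell, while PRDX3, TXNRD2 and PRDX5, which is also found elsewhere, were not called. Outside this division GSTP1 rose, while PRDX6, SESN2 and SESN3 fell. GPX1, an enzyme of both cytosol and mitochondria, fell as well (-0.68, adjusted p = 6.47e-12 in edgeR). Whether the changes of these genes differed from each other was not tested.

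Members of the glutathione peroxidase family also reduce peroxides, GPX1 and GPX4 with glutathione. Of 8 genes, 4 could be tested, and GPX1, GPX4 and GPX8 were lower, beside 12.7% of all genes tested. The median log2 fold change of the 4 was -0.38. GPX1, the cytosolic and mitochondrial hydrogen peroxide reductase, fell from 8894 ± 315 to 5548 ± 70.9 (SD, n = 3; -0.68, adjusted p = 6.47e-12 in edgeR), and another gene covers 39.9% of its exon bases. GPX4 fell by 0.42 on the log2 scale (adjusted p = 1.68e-09) and GPX8, of the endoplasmic reticulum, fell by 0.35 (adjusted p = 6.40e-07).

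**Figure D3:**
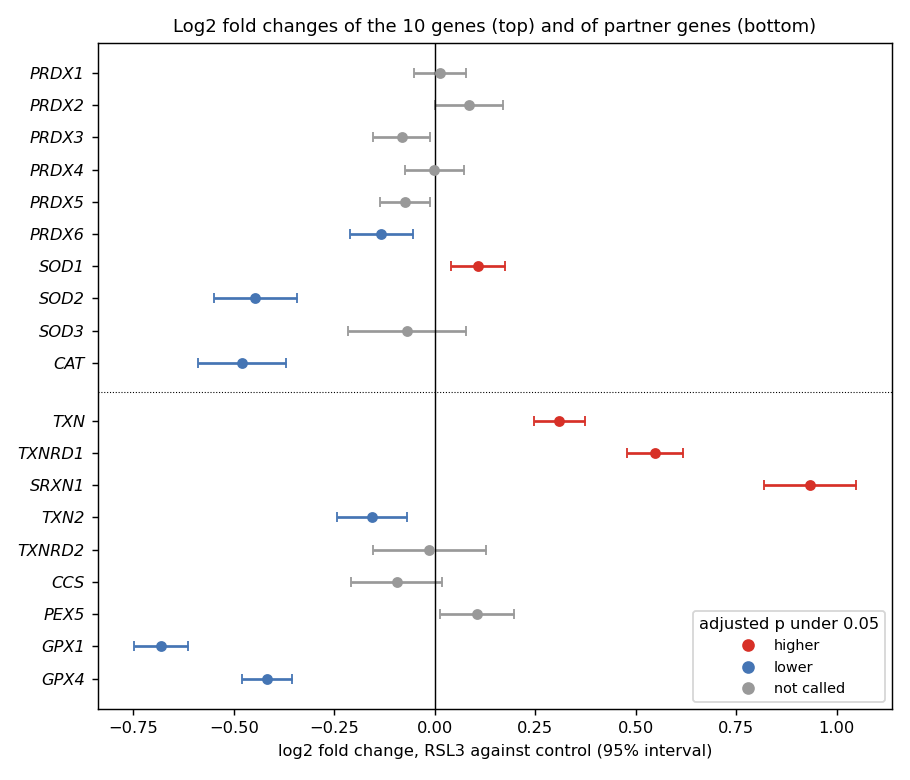
Log2 fold changes of RSL3 against control (horizontal axis) with 95% intervals for the 10 genes (top) and for 9 partner genes (bottom), colored by edgeR's call at an adjusted p under 0.05. CAT and SOD2 lie at -0.48 and -0.45, the peroxiredoxins lie near 0, and SRXN1 lies farthest to the right at 0.93.

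Enzymes that produce superoxide or hydrogen peroxide moved both ways. Of 22 tested genes of 35, 7 were higher and 2 lower, beside 12.9% and 12.7% of all genes tested. Their median log2 fold change was 0.05. LOX, a lysyl oxidase that releases hydrogen peroxide, was higher by 0.44 (adjusted p = 2.06e-08 in edgeR), the sulfhydryl oxidase QSOX1 by 0.21 (adjusted p = 1.64e-05) and ERO1B, an oxidase of the endoplasmic reticulum, by 0.28 (adjusted p = 9.47e-05). LOXL2, another lysyl oxidase, and the monoamine oxidase MAOA were lower, by -0.42 (adjusted p = 1.25e-06) and -0.33 (adjusted p = 0.000558).

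The genes that load the dismutases with metal or bring catalase into peroxisomes had called log2 fold changes between -0.24 and 0.24. Of those tested, 2 of 9 copper delivery, 4 of 8 manganese transport and 4 of 12 peroxisomal import genes were called, beside 12.9% higher and 12.7% lower of all genes tested. Among 9 tested of 10 copper delivery genes, the copper importer SLC31A1 was higher (0.23, adjusted p = 1.12e-05 in edgeR) and the metallothionein MT2A lower (-0.18, adjusted p = 0.000434). CCS, the chaperone that inserts copper into SOD1, had 979 ± 16.7 and 916 ± 23.7 normalized counts (SD, n = 3) and was not called (-0.09, adjusted p = 0.227). Among 8 tested of 10 manganese transport genes, the metal importer SLC39A14 was higher (0.14, adjusted p = 0.000269) and so was ATP13A1 (0.11, adjusted p = 0.0391), whereas the Golgi transporter TMEM165 (-0.23, adjusted p = 4.50e-05) and the importer SLC39A8 (-0.24, adjusted p = 0.00139) were lower. Among 12 peroxisomal import genes, PEX14, the docking protein of the import receptor, and PEX6, an ATPase that recycles it, were higher (0.20 and 0.24). PEX2, a ubiquitin ligase of that recycling, and PEX3, which brings in membrane proteins, were lower (-0.16 and -0.21), and the 4 genes had adjusted p between 0.0224 and 0.0438 in edgeR. All 4 of these calls were lost at an adjusted p threshold of 0.01, and leaving out a library left 0 (without RSL3 replicate 1) to 2 calls in the list. PEX5, the receptor that carries catalase into the peroxisome, had 1656 ± 36.5 and 1781 ± 68.0 (SD, n = 3) and was not called (0.10, adjusted p = 0.0877).

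Groups of response genes to which some of the 10 genes are known to belong were set beside them. For scale, 12.9% of all genes tested were higher and 12.7% lower. PRDX1 and PRDX6 are known targets of NRF2, the main activator of antioxidant genes, and PRDX1 was not called while PRDX6 was lower. Of 24 other NRF2 response genes tested, 23 were higher and 1 was not called, with a median log2 fold change of 0.41. These include TXN, TXNRD1 and SRXN1 of the recycling list, and, with the smallest p, OSGIN1 (0.96), GCLM (0.67) and HMOX1 (0.95), with adjusted p between 1.64e-12 and 3.72e-11 in edgeR. SOD2 is a known target of NF-κB, and of 22 NF-κB response genes 6 were higher and 4 lower, with a median of 0.05. The chemokine CXCL8 (0.49, adjusted p = 6.64e-10), the adhesion receptor ICAM1 (0.42, adjusted p = 3.37e-06) and the NF-κB subunit RELB (0.30, adjusted p = 4.22e-06) were higher, and 25.4% of ICAM1's exon bases are shared with other genes. The chemokine CCL2 (-1.70, adjusted p = 1.38e-07), the feedback inhibitor TNFAIP3 (-0.42, adjusted p = 4.22e-05) and the apoptosis inhibitor BIRC3 (-0.86, adjusted p = 0.000109) were lower.

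SOD2 and CAT are both known FOXO targets. Of 16 tested FOXO genes and other FOXO targets, 2 were higher and 5 lower, beside 12.9% and 12.7% of all genes tested. Their median log2 fold change was -0.07. PPARGC1A, a coactivator of mitochondrial biogenesis, was lower by -0.42 (adjusted p = 0.000160 in edgeR), the ubiquitin ligase FBXO32 by -0.18 (adjusted p = 0.000192) and the transcription factor KLF6 by -0.28 (adjusted p = 0.000396). The stress genes GADD45A (0.17, adjusted p = 0.00147) and GADD45B (0.36, adjusted p = 0.00945) were higher. All 13 mitochondrially encoded mRNAs were lower, with a median of -0.40 and, by smallest p, MT-ND4L (-0.45, adjusted p = 1.59e-06), MT-CO3 (-0.50, adjusted p = 1.91e-06) and MT-ATP6 (-0.47, adjusted p = 1.52e-05) first. In 3 of these 13, MT-ND2, MT-ND3 and MT-ND6, named after their values were seen, the groups overlapped. The part of these transcripts, or of RNA quality, in the SOD2 value was not tested.

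**Figure D4:**
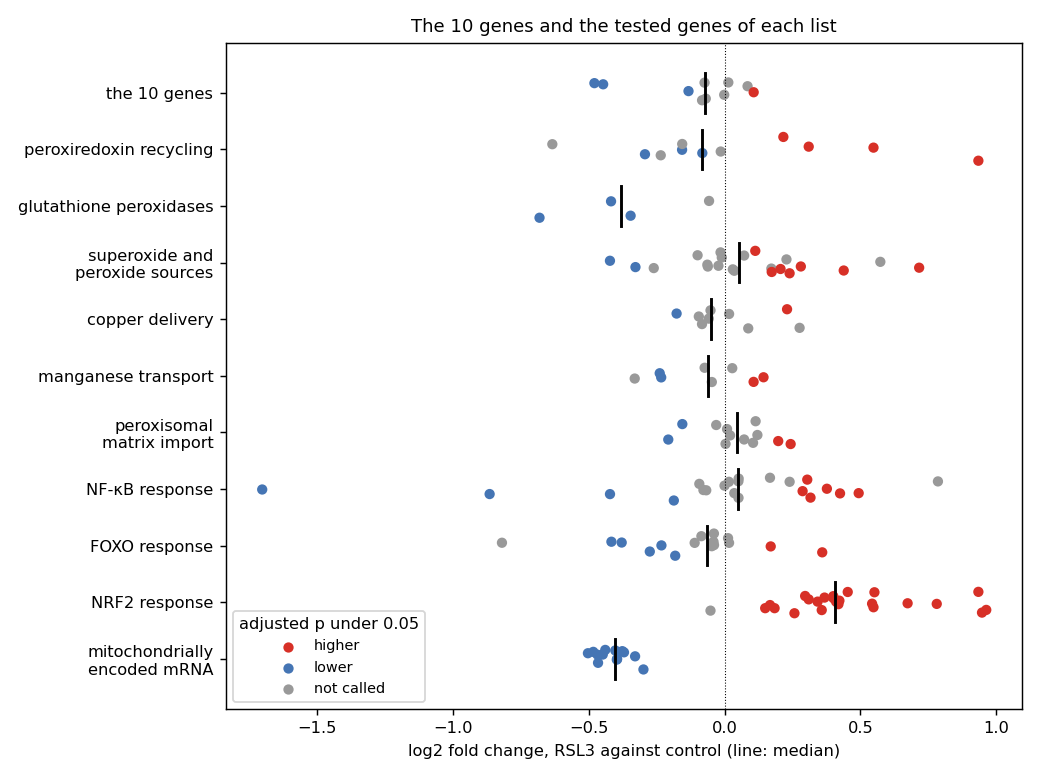
Log2 fold changes of RSL3 against control (horizontal axis) of the 10 genes and of the tested genes of 10 lists (rows); each point is a gene, colored by edgeR's call, and each black line is a median. The 10 genes center near -0.07, the NRF2 response genes near 0.41 and the mitochondrially encoded mRNAs near -0.40.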

How the data were processed

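Per the study's methods and the submitters' processing notes, the authors trimmed reads with Trimmomatic 0.36 and fastp, checked them with FastQC 0.11.5, aligned them to GRCh38.p4 with HISAT2, sorted them with SAMtools 1.3.1 and counted them on exons, without regard to strand, with HTSeq 0.6.1p1. The authors deposited unnormalized read counts for each Ensembl gene, and 0 rows name no gene. The annotation release is not given in the sources used here. Symbols came from a table of gene names, except that of SOD2, which the study's own gene table pairs with its identifier. GENCODE v44 (GRCh38) lists SOD2 under ENSG00000291237, whose coordinates and exons are used here, so exon extents may differ from those counted.

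The counts were tested in R 4.3.3 with edgeR 4.0.16: filterByExpr (minimum count 10), TMM scaling (factors 0.995 to 1.01), the quasi-likelihood F test of 3 RSL3 against 3 control libraries, and Benjamini-Hochberg adjustment over 16105 genes. A positive log2 fold change means higher in RSL3, and its standard error is the log2 fold change divided by the square root of F. The study's methods used DESeq2 after surrogate variable analysis without giving the number of variables, so DESeq2 1.42.0 with 0, 1 or 2 surrogate variables from sva 3.50.0 (estimated where the mean normalized count exceeded 1) was an alternative. Other alternatives were 2 other scalings, 2 other filters, edgeR with 1 surrogate variable, a replicate block, each library left out and stricter thresholds. Ratios were tested with scipy 1.17.1. The labels do not say whether the 3 libraries of a group came from separate cultures, so p-values measure the spread between these libraries, which may be technical.

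The members, the gene lists and the tests were chosen with earlier results of these data known. Besides all 10 genes, the genes named are in each list the called genes of smallest p, up to 3 higher and 3 lower, direct partners (TXN, TXNRD1, SRXN1, CCS, PEX5, GPX1, GPX4), genes that overlap a member or start within 1000 bases on the other strand, and the 5 genes nearest in pattern to the called member with the largest rise or fall. The GC box and CCAAT box were added after the data were seen. The edgeR step was tested on simulated data. 1 marker gene is not reported here.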

Additional observations from a re-analysis of the deposited data

How the results depend on the processing

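Of the 10 genes, CAT and SOD2 were called in all 15 alternative fits, with a highest adjusted p of 1.51e-05 and 0.00161, PRDX6 in 12, SOD1 in 11 and PRDX3 and PRDX5 in 3 each, and PRDX1, PRDX2, PRDX4 and SOD3 were not called in any. Genes called higher among the 10 numbered 0 with DESeq2 and 2 surrogate variables, at an adjusted p under 0.01, and with a minimum absolute log2 fold change of 0.25, and 0 to 1 with a library left out. Genes called lower numbered 5 with total counts and 5 with the replicate block, and 2 to 5 with a library left out. With 2 surrogate variables, PRDX6 (-0.13) and SOD1 (0.11) were not called. With total counts PRDX3 (-0.0910) and PRDX5 (-0.0819) were called. Deviations of same-numbered libraries correlated at 0.0161, 0.0335 and 0.0934, and none was over 0.1. The value for replicate 3 was the largest of all pairs, but RSL3 replicate 1 correlated best with control replicate 2 (0.0378). Correlations this small neither show that replicate numbers pair the libraries nor exclude it. Under the replicate block, PRDX3 (-0.0824, adjusted p = 0.0307 in edgeR) and PRDX5 (-0.0735, adjusted p = 0.0227) were called and genes called in all rose from 4123 to 4633. The sign of PRDX4 turned with 10 counts required in every library (0.00097), in DESeq2 with 0, 1 and 2 surrogate variables (0.0014, 0.0018 and 0.00042), and within the range of -0.0194 to 0.0116 with a library left out, as did that of PRDX1 (-0.00896 to 0.0283). Leaving out a library gave -0.111 to -0.0611 for PRDX3, -0.0928 to -0.0531 for PRDX5, -0.157 to -0.0918 for PRDX6 and 0.0940 to 0.137 for SOD1. The cause of these shifts was not tested.

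Recycling genes called numbered 7 but 4 with 2 surrogate variables, 4 with the fold minimum of 0.25 and 4 to 7 with a library left out (4 without control replicate 1 or RSL3 replicate 2). With that fold minimum, 5 superoxide and peroxide sources, 0 copper, 0 manganese, 0 peroxisomal import and 4 FOXO genes were called. Peroxisomal import genes called also numbered 1, 0 and 0 in DESeq2 with 0, 1 and 2 surrogate variables, 0 at an adjusted p under 0.01 and 0 to 2 with a library left out. Of the mitochondrially encoded mRNAs, 8 were called with 2 surrogate variables. Over all genes, DESeq2 with 2 surrogate variables called 2268 against 4123. With 3 libraries a group, the 95% intervals of the genes not called were widest for SOD3, the gene with the fewest reads, at -0.22 to 0.08, and -0.05 to 0.08 for PRDX1.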

Other observations

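Among 11463 genes with a mean of at least 100 normalized counts, the genes nearest to CAT and SOD1 in pattern were sought by the root mean square difference of log2 normalized counts, each relative to the gene's own control mean, over the 6 libraries. The nearest to CAT, which had the largest fall of the 10, were EBP (0.0358), an enzyme of sterol synthesis, GM2A (0.0375), a lysosomal glycolipid cofactor, PTGFRN (0.0407), GLIPR1 (0.0421) and APBB1IP (0.0424). Their own log2 fold changes were between -0.52 and -0.47, and 169 genes lay within 0.1 of CAT. The nearest to SOD1, the only 1 of the 10 called higher, were SDF2 (0.0124), PRNP (0.0147), the prion protein gene, TMED9 (0.0162), CYBA (0.0163), a subunit of the NADPH oxidase complex, and IMP3 (0.0166). These neighbors of SOD1 had log2 fold changes between 0.09 and 0.12. SDF2 (adjusted p = 0.227 in edgeR) and IMP3 (adjusted p = 0.180) were not called. As many as 4101 genes lay within 0.1 of SOD1, so these 5 hardly stand out. These likenesses are descriptions over 6 libraries that share the same groups.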
